A study of Mus musculus with 12 samples.

Results

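The genes described here are 35 genes of amino acid supply and tRNA charging, chosen by name: the transcription factor Atf4 with 3 genes that act downstream of it (Ddit3, Trib3 and Chac1), 11 enzymes of serine, one-carbon, asparagine and proline synthesis, and 20 genes for cytosolic aminoacyl-tRNA synthetases. All 35 were found by their symbol among the 23700 loci of each expression file. RNA was measured in 10 libraries of CD4+ T cells that were sorted as naive (CD4+CD44-CD25-CD62L+) from C57BL/6J mice, out of lymph nodes and spleen. Bach2-deficient cells (Bach2KO) and wild type (WT) cells were each stimulated for 3 days by immobilized anti-CD3 with anti-CD28 (10 μg/ml each) in IL-2 (100 IU/ml) and human TGF-β1 (5 ng/ml), conditions that induce regulatory T cells (iTreg), and gave 3 libraries per genotype. Single WT libraries came from cultures with the same stimulation and IL-12 (20 ng/ml, Th1), IL-4 (20 ng/ml, Th2), or IL-6 (20 ng/ml) with TGF-β1 (2 ng/ml, Th17), each with neutralizing antibodies (10 μg/ml), and from freshly isolated naive cells. Bach2 binding was measured by chromatin immunoprecipitation (ChIP) in 1 library of WT iTreg cells. The labels name neither the Bach2 allele nor the animals behind the replicates, so p-values measure only the spread between these libraries, which may be technical.

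ATF4 is a basic leucine zipper factor whose mRNA is translated preferentially when the initiation factor eIF2 is phosphorylated, as happens when uncharged tRNA activates the kinase GCN2 or unfolded protein in the endoplasmic reticulum activates PERK. Its targets include amino acid transporters, enzymes that make serine, glycine, asparagine and proline, and many cytosolic tRNA synthetases, and in stimulated T cells these genes also rise with growth signals. Serine made from a glycolytic intermediate by Phgdh, Psat1 and Psph feeds the folate cycle of Shmt and Mthfd enzymes, which supplies one-carbon units for nucleotide synthesis. Bach2 is a repressor that binds AP-1-like sites together with small Maf proteins.

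The deficient libraries had little Bach2 RNA, at 3.81 ± 0.378 FPKM in Bach2KO against 17.6 ± 0.351 FPKM in WT iTreg libraries (SD, n = 3 each; limma, adjusted p = 4.4e-06). FPKM, fragments per kilobase of transcript scaled to library size, is a level per length. Its sum over all loci lay between 545183 and 553892 in Bach2KO, between 432450 and 437849 in WT iTreg, and at 303348 in naive cells, so levels depend on the scaling of the libraries. Reads implied by the deposited confidence intervals over single-start loci came to 20.1 to 24.0 M in Bach2KO and 18.2 to 19.1 M in WT iTreg libraries, and to 12.4 to 18.5 M in the single libraries. Cd4 was at 169 ± 23.1 FPKM in Bach2KO and 146.8 ± 8.34 FPKM in WT (limma, adjusted p = 0.14). Of 6 T cell markers tested, Cd4 among them, 4 were lower in Bach2KO: Cd3d, Cd3e, Cd5 and Lck. Foxp3, the defining factor of regulatory T cells, was at 7.68, 19.7 and 5.81 FPKM in the Bach2KO cultures against 69.6, 66.7 and 81.1 FPKM in the WT cultures. The name iTreg therefore stands for the culture condition.

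Upstream sequence was available for 27 of the 35 genes, as 300 bases from 250 before to 50 after the annotated start (RefSeq, GRCm38.p6). The table used had no entry for Cars, Hars, Lars, Mars, Nars, Rars, Vars and Wars. The letters TGATGNAA, the composite C/EBP-ATF response element through which ATF4 acts, were searched on both strands and occurred in 9 of the 27 (33.3%), against 4.51% of 27025 genes. These 9 were Trib3, Chac1, Asns, Pycr1, Aars, Gars, Iars, Tars and Yars. A 30-base window that holds the letters is printed for each gene 5′ to 3′ on the strand that reads TGATGNAA, with the match in capitals. They are shown because the letters occurred in a larger share of these genes than of all genes.
Trib3: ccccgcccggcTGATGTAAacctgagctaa
Chac1: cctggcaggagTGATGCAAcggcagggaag
Asns: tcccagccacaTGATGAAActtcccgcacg
Pycr1: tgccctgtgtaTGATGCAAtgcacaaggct
Aars: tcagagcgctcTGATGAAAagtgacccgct
Gars: cgcccggtgcaTGATGAAAtagcgcagcca
Iars: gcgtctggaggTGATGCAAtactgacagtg
Tars: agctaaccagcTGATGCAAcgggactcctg
Yars: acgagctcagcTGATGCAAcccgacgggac

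Counted from the annotated start, with the first transcribed base as 1 and the base before it as -1, the printed match began at 15 in Trib3, -193 in Chac1, -23 in Asns, -103 in Pycr1, 10 in Aars, -30 in Gars, 8 in Iars, -15 in Tars and 4 in Yars. Log2 differences between Bach2KO and WT, described below, had a median of 1.30 (range 0.81 to 3.08) over the 8 tested genes with a match. Over the 18 without one the median was 0.90 (range -0.77 to 3.14). The ranges overlapped, and these values are given without a test. Among the synthetases the 5 genes with it had a median of 0.90 (range 0.81 to 1.66) and the 7 without it a median of 0.65 (range 0.08 to 0.99). Synthetases without an upstream sequence were in neither group, and their log2 differences ran from 0.69 for Lars to 2.24 for Wars. The contrast therefore covers only the synthetases that were searched. The 250 bases before the start of Asns, the asparagine synthetase gene (GRCm38.p6, chr6:7693210-7693459, minus strand), are printed to show the match close to the start.
Asns: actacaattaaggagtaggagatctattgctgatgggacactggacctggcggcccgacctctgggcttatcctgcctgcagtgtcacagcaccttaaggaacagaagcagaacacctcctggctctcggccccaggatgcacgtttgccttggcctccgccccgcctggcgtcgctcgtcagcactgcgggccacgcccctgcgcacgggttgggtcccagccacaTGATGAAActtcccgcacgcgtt

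The AP-1-like letters TGANTCA, the kind of site Bach2 binds, occurred on either strand in 2 of the 27 upstream sequences (7.4%, against 8.97% of all genes), those of Ddit3 and Qars. Beginning 242 bases before the Ddit3 start the letters read TGACTCA, and they are shown because Ddit3 was the 1 member lower in Bach2KO (GRCm38.p6, chr10:127290543-127290792, plus strand).
Ddit3: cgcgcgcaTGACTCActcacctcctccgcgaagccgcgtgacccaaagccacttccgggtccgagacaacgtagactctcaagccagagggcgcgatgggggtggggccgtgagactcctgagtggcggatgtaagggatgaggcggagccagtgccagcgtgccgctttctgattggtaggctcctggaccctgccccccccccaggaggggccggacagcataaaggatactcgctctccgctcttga
The E-box CACGTG, the site of Myc and related factors, occurred in Aars, Aldh18a1, Farsb, Iars and Tars, 5 of 27 (18.5%, against 8.09% of all genes). A match gives letters only, and binding by ATF4 or Myc was not measured. For the TGANTCA match of Ddit3, no Bach2 peak summit described below lay within 1 kb of the start. The peaks in Ddit3 had summits 3558 and 5255 bases downstream of it. Qars, with the same letters, was not called different between genotypes.

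Atf4 and 2 of its downstream genes were higher in Bach2KO than in WT iTreg cells, the enzymes were higher with a larger median than the synthetases, and Ddit3 was lower. Of the 35 genes, 34 were tested on log2(FPKM + 0.5) with limma and Benjamini-Hochberg adjustment over 11473 genes, at a threshold of 0.05. Of these, 32 were called higher and 1 lower, and 1 was not called. Over all tested genes 41.0% were called higher and 33.6% lower, 74.7% in all, so a call by itself was common. The median log2 difference was 1.00 over the 34 tested members and 0.07 over all tested genes, and 17 members were called at least 2-fold higher, beside 14.7% of all genes. The 3 Bach2KO libraries all lay above the 3 WT libraries for 32 tested members, beside 43.4% of all tested genes, and all below them for 1, beside 36.0%. The split over all genes turned with the scaling, with 3715 higher and 4890 lower after quantile normalization and 3283 higher and 5419 lower at equal sums of FPKM. Relative to medians of -0.09 and -0.18 over all genes, the median of the members was then 0.80 and 0.73, with 32 higher and 2 lower under each.

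**Figure D1:**
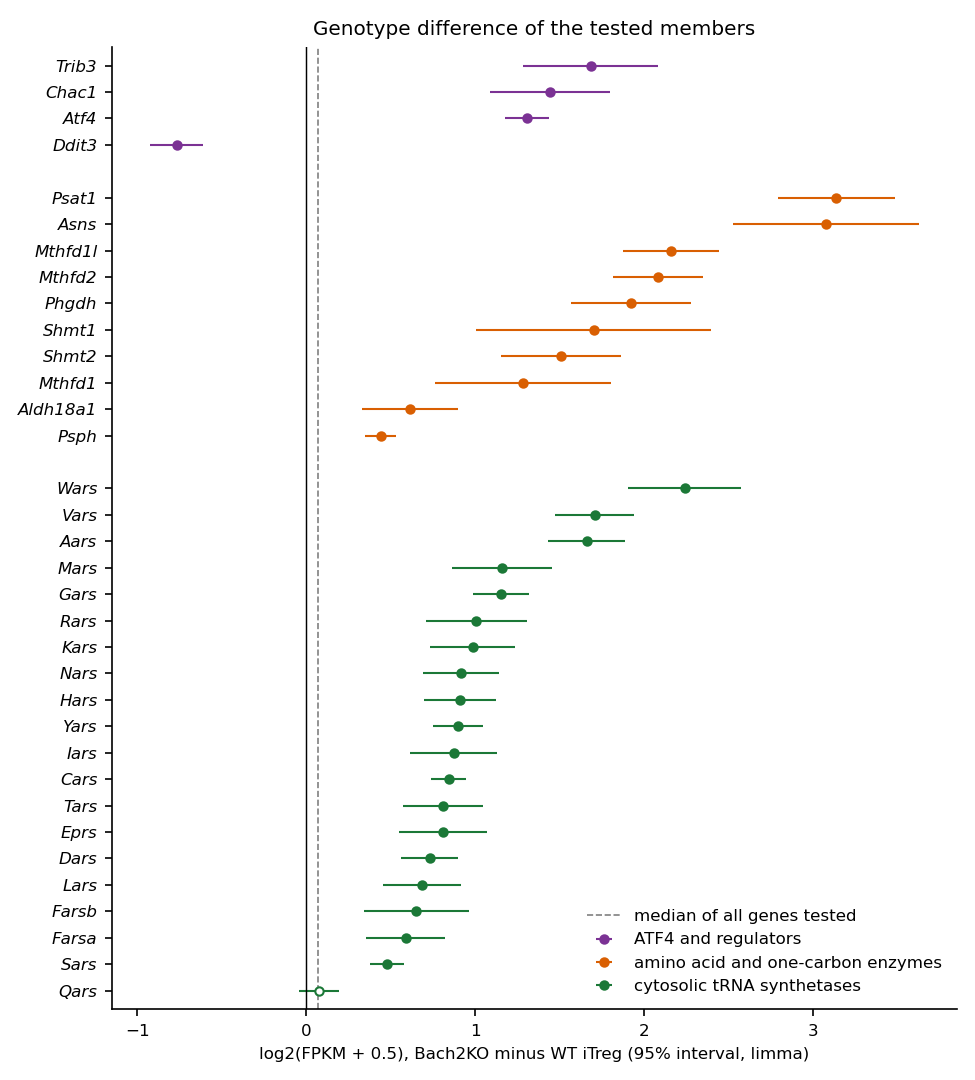
Log2 difference between Bach2KO and WT iTreg libraries (3 each) for the 34 tested genes, with 95% intervals from limma; filled points were called at an adjusted p under 0.05 and the open point was not. Ddit3 lies left of 0 at -0.77, Qars at 0.08 crosses 0, and Psat1 and Asns lie farthest right at 3.14 and 3.08.

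Among the regulators, Atf4 (chr15:80085614-80087971, mm9) was at 107.6, 110.5 and 105.4 FPKM in Bach2KO replicates 1, 2 and 3, against 43.8, 40.4 and 45.6 FPKM in WT replicates 1, 2 and 3. The genotypes were far apart beside the spread within each. The log2 difference was 1.31 (SE 0.05, adjusted p = 6.9e-06 by limma). Within a library, Atf4 ranked at the 94.0 to 94.1 percentile of loci with at least 0.5 FPKM in Bach2KO and at the 84.4 to 86.3 percentile in WT.

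Trib3, a pseudokinase that is induced by ATF4 and restrains it, was at 15.2, 14.5 and 18.5 FPKM in Bach2KO and 3.66, 4.78 and 5.64 FPKM in WT (log2 difference 1.69, SE 0.16, adjusted p = 0.00018, limma). Chac1, a glutathione-degrading enzyme, was at 1.24, 0.828 and 0.978 FPKM in Bach2KO and at 0, 0.0945 and 0.0678 FPKM in WT, where the 2 nonzero values rested on 4 and 3 implied reads. Neither gene's genotypes overlapped, and the log2 difference of Chac1 on the log2(FPKM + 0.5) scale, 1.45 (SE 0.14, adjusted p = 0.00021, limma), understates the change of so low a gene. Chac1 passed the filter on low values only through its Bach2KO libraries.

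Ddit3, which encodes CHOP, a C/EBP-family partner of ATF4 in the unfolded protein response, moved the other way. It was at 15.6, 15.8 and 17.0 FPKM in Bach2KO, against 25.9, 29.7 and 27.8 FPKM in WT, without overlap (log2 difference -0.77, SE 0.06, adjusted p = 9.6e-05, limma). Its percentile within a library was 56.5 to 60.1 in Bach2KO and 74.1 to 77.7 in WT. The Ddit3 locus (chr10:126727849-126733344, mm9) overlaps the 3′ end of Mars by 68 bases on the other strand, and whether counting used strand is not given in the sources used here. Mars was higher in Bach2KO, the direction opposite to Ddit3.

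All 10 tested enzymes were called higher, with log2 differences between 0.44 and 3.14 and a median of 1.81. Along the serine branch, Phgdh, the first and committed enzyme, was at 64.6, 80.1 and 56.6 FPKM in Bach2KO, against 15.8, 16.3 and 19.6 FPKM in WT (log2 difference 1.92, SE 0.14, adjusted p = 6.3e-05, limma). Psat1, the aminotransferase that acts next, was at 55.3, 62.0 and 54.3 FPKM in Bach2KO, against 5.57, 5.18 and 7.60 FPKM in WT (3.14, SE 0.14, adjusted p = 9.6e-06). Psph, the phosphatase that completes serine, was at 20.8, 20.9 and 20.4 FPKM in Bach2KO, against 14.8, 15.2 and 15.4 FPKM in WT (0.44, SE 0.04, adjusted p = 0.00011). It had the smallest difference of the 10 enzymes, and its 95% interval, 0.35 to 0.53, lay below those of Phgdh (1.57 to 2.28) and Psat1 (2.79 to 3.48), although its libraries were tight and did not overlap.

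In the folate cycle, Shmt2, the mitochondrial serine hydroxymethyltransferase, was at 62.8, 79.9 and 56.2 FPKM in Bach2KO, against 22.6, 20.4 and 25.5 FPKM in WT (log2 difference 1.51, SE 0.15, adjusted p = 0.00018, limma). Shmt1, the cytosolic form, was at 19.6, 30.6 and 15.5 FPKM in Bach2KO, against 5.85, 4.85 and 8.07 FPKM in WT (1.70, SE 0.28, adjusted p = 0.002). Bach2KO replicate 2 was the highest library for both genes, and no Bach2KO library overlapped WT.

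Mthfd2, a mitochondrial methylenetetrahydrofolate dehydrogenase, was at 42.6, 50.9 and 39.9 FPKM in Bach2KO, against 9.95, 9.24 and 11.1 FPKM in WT (log2 difference 2.08, SE 0.11, adjusted p = 1.5e-05, limma). Mthfd1, the trifunctional cytosolic enzyme, was at 21.9, 30.2 and 18.2 FPKM in Bach2KO, against 9.17, 7.55 and 10.98 FPKM in WT (1.28, SE 0.21, adjusted p = 0.0019). Mthfd1l, the mitochondrial formate-releasing enzyme, was at 34.8, 31.7 and 37.2 FPKM in Bach2KO, against 7.22, 6.34 and 8.61 FPKM in WT (2.16, SE 0.12, adjusted p = 1.8e-05). The authors' estimate of Mthfd1l in Bach2KO replicate 3 is marked as failed in the file, and with such loci left out the gene has no test.

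The mitochondrial over the cytosolic enzyme of the same step was compared as a log2 ratio in each library. For Mthfd2 over Mthfd1 it was 0.94, 0.74 and 1.11 in Bach2KO and 0.11, 0.28 and 0.01 in WT. The difference of 0.80 gave p = 0.1 in a two-sided exact permutation test, the smallest p that 3 against 3 libraries allow. For Shmt2 over Shmt1 it was 1.65, 1.37 and 1.83 in Bach2KO and 1.86, 1.97 and 1.60 in WT, overlapping groups (difference -0.19, exact p = 0.4). The 2 ratios were the only ones tested, and neither design can pass a threshold of 0.05.

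Asns, which makes asparagine from aspartate (chr6:7625171-7643182, mm9), was at 8.82, 7.06 and 9.79 FPKM in Bach2KO, against 0.385, 0.430 and 0.966 FPKM in WT (log2 difference 3.08, SE 0.22, adjusted p = 5.6e-05, limma). The WT values rested on 21, 23 and 54 implied reads, so the gene was near the lower limit of measurement in WT. For proline, Aldh18a1, which makes its precursor from glutamate, was at 24.6, 29.8 and 22.7 FPKM in Bach2KO, against 17.2, 14.8 and 17.7 FPKM in WT (0.61, SE 0.12, adjusted p = 0.0035). Pycr1, the mitochondrial reductase that completes proline, was at 0.764, 0.519 and 0.649 FPKM in Bach2KO, against 0.0467, 0.0238 and 0.091 FPKM in WT. Its mean over the 6 libraries fell under the filter of 0.5 FPKM, and without that filter its log2 difference was 1.04 (SE 0.10, adjusted p = 0.0014, limma).

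**Figure D2:**
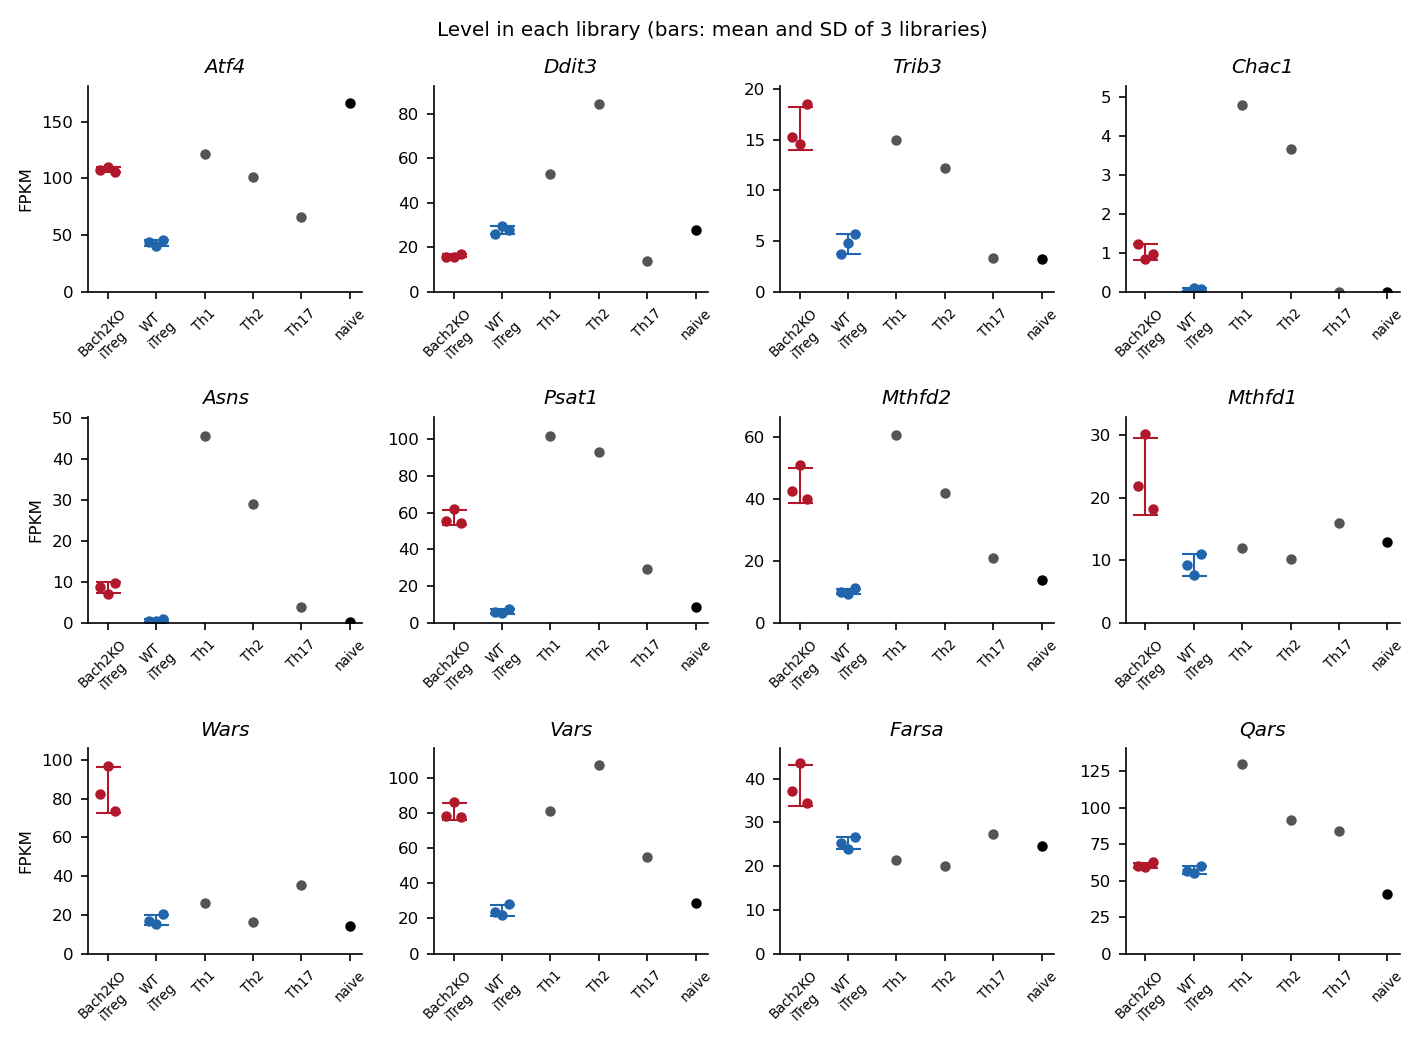
FPKM in each library for 12 of the 35 genes, with Bach2KO and WT iTreg libraries (points, with mean and SD, n = 3 each) left of the single Th1, Th2, Th17 and naive libraries; every axis starts at 0. Atf4 was lowest in WT iTreg and highest in naive cells, Ddit3 was highest in Th2, and Wars stood higher in the 3 Bach2KO libraries than in any other.

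Of the 20 cytosolic synthetases, which couple amino acids to their tRNAs, 19 were called higher and none lower, with a median log2 difference of 0.89. The 3 largest differences belonged to Wars, Vars and Aars. Wars, for tryptophan, which is also an interferon-γ-induced gene, was at 82.7, 97.0 and 73.6 FPKM in Bach2KO, against 16.8, 15.4 and 20.3 FPKM in WT (2.24, SE 0.14, adjusted p = 2.7e-05, limma). Vars, for valine, was at 78.6, 86.5 and 78.0 FPKM in Bach2KO, against 23.8, 22.0 and 28.0 FPKM in WT (1.71, SE 0.10, adjusted p = 2.1e-05). Aars, for alanine, was at 35.0, 38.8 and 34.0 FPKM in Bach2KO, against 10.2, 10.4 and 12.5 FPKM in WT (1.66, SE 0.09, adjusted p = 2.1e-05). The Bach2KO libraries lay above WT without overlap for all 3, and 532 bases of the Aars locus are shared with Exosc6.

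At the lower end were Farsa, Sars and Qars. Farsa, the alpha subunit of the phenylalanine enzyme, was at 37.3, 43.6 and 34.4 FPKM in Bach2KO, against 25.2, 23.9 and 26.8 FPKM in WT (0.59, SE 0.10, adjusted p = 0.0017, limma). Sars, for serine, was at 45.2, 44.5 and 46.7 FPKM in Bach2KO, against 32.1, 31.7 and 33.8 FPKM in WT (0.48, SE 0.04, adjusted p = 0.00012). For both genes the genotypes stayed apart. Qars, for glutamine, was at 59.9, 59.2 and 62.6 FPKM in Bach2KO, against 56.5, 55.4 and 60.5 FPKM in WT, with overlap (0.08, 95% interval -0.04 to 0.19, adjusted p = 0.19). Qars was the 1 tested member whose direction turned with the scaling, at -0.16 (adjusted p = 0.024) after quantile normalization and -0.20 (adjusted p = 0.0094) at equal sums of FPKM.

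By mean level, Kars, for lysine, was the highest synthetase in Bach2KO, at 80.8, 97.8 and 76.2 FPKM against 41.0, 40.7 and 45.7 FPKM in WT (0.99, SE 0.10, adjusted p = 0.00025, limma). Wars, at a mean of 84.4 FPKM, and Vars, at 81.0 FPKM, did not differ from Kars there beyond the spread of libraries, and the order of the 3 varied between replicates. Cars, for cysteine, was the lowest in both genotypes, at 17.0, 17.96 and 17.8 FPKM in Bach2KO against 9.53, 9.51 and 9.72 FPKM in WT (0.84, SE 0.04, adjusted p = 1.4e-05). In WT the highest was Qars, the synthetase that differed least between genotypes. The other 12 synthetases (Dars, Eprs, Farsb, Gars, Hars, Iars, Lars, Mars, Nars, Rars, Tars and Yars) had log2 differences from 0.65 for Farsb to 1.16 for Mars.

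Synthetases grouped by their place in the cell differed little among themselves. Of the 8 that belong to the multisynthetase complex (Dars, Eprs, Iars, Kars, Lars, Mars, Qars and Rars) 7 were called higher, with a median log2 difference of 0.84, and of the 12 outside it 12 were higher, with a median of 0.90. Of the complex's scaffold genes, Aimp2 and Eef1e1 were higher by 1.30 (adjusted p = 0.00076, limma) and 1.18 (adjusted p = 0.0022), while Aimp1 was not called, at 56.7 ± 0.454 FPKM in Bach2KO and 60.9 ± 3.24 FPKM in WT (n = 3 each, adjusted p = 0.099). The 12 synthetases often listed as ATF4 targets had a median of 0.89, and the 8 others a median of 0.82.

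The mitochondrial synthetases that have a nuclear gene of their own did not, as a group, move with their cytosolic counterparts. Of 17 tested, 3 were called higher and 7 lower, beside 41.0% and 33.6% of all tested genes. Their median log2 difference was -0.08, beside 0.07 over all tested genes. With quantile normalization the split was 3 higher and 9 lower, beside 3715 and 4890 of all 11473 tested genes. At equal sums of FPKM it was 2 higher and 11 lower, beside 3283 and 5419. Wars2 was at 2.21 ± 0.121 FPKM in Bach2KO and 4.14 ± 0.179 FPKM in WT (-0.78, adjusted p = 0.00011, limma, n = 3 each), opposite to Wars. Mars2 (-0.77, adjusted p = 0.00018) and Hars2 (-0.50, adjusted p = 0.00031) were also lower, while Sars2 (0.65, adjusted p = 0.001) and Yars2 (0.50, adjusted p = 0.0088) were higher. Over 17 pairs compared for the same amino acid the cytosolic enzyme had the larger value in 16. The exception was serine, with 0.48 for Sars and 0.65 for Sars2. Eprs and Fars2 each entered more than 1 pair, so the pairs are not independent. For leucine the values were nearly equal, at 0.69 for Lars and 0.66 for Lars2, which was not called.

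**Figure D3:**
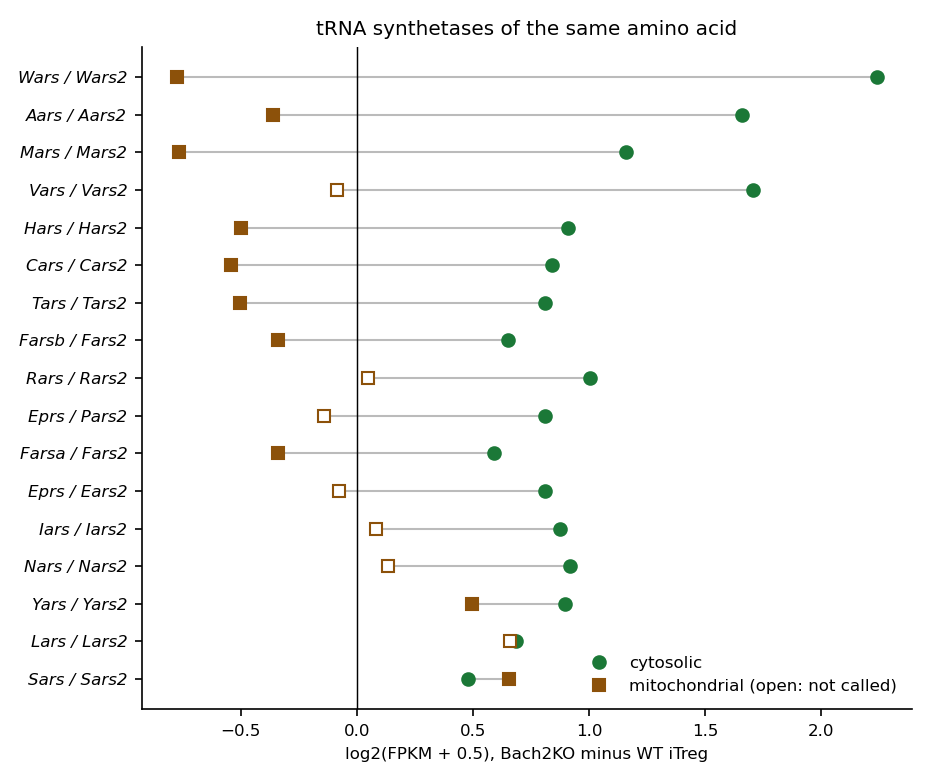
Log2 difference between Bach2KO and WT iTreg libraries (3 each) for cytosolic (circles) and mitochondrial (squares) synthetases of the same amino acid, with open symbols where limma made no call. The circle lies right of the square in 16 of 17 pairs, from 2.24 against -0.78 for Wars and Wars2 to 0.69 against 0.66 for Lars and Lars2.

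Genes next to these in the same pathways were taken from lists compiled by name, and their counts stand beside 41.0% of all tested genes called higher and 33.6% called lower. Of 30 other ATF4 targets 23 were tested, of which 17 were higher and 2 lower (median 1.02). The counts were 15 and 3 after quantile normalization and 14 and 3 at equal sums of FPKM. With a filter of 2 FPKM on the mean, 14 of 18 tested were higher and 2 lower. Gpt2 (0.926 FPKM in Bach2KO, 0.202 FPKM in WT) and Slc6a9 (1.16 and 0.0929 FPKM) passed the 0.5 FPKM filter only through their Bach2KO libraries. Among the higher ones, Sesn2, an inhibitor of mTORC1, was at 9.95 ± 0.200 FPKM in Bach2KO and 2.08 ± 0.0969 FPKM in WT (2.02, adjusted p = 2e-06, limma, n = 3 each). Slc7a11, the cystine carrier (2.19, adjusted p = 5.4e-06), and the partner Cebpb (2.37, adjusted p = 5.8e-06) were also higher. The partner Atf3 was at 6.26, 5.09 and 5.13 FPKM in Bach2KO and at 0.0892, 0 and 0.139 FPKM in WT, and passed the filter on low values only through its Bach2KO libraries. The 2 lower were Slc38a2, a neutral amino acid carrier, at 28.0 ± 0.587 FPKM in Bach2KO and 41.8 ± 0.583 FPKM in WT (-0.57, adjusted p = 3.2e-05), and Sqstm1, an autophagy receptor (-0.33, adjusted p = 0.0063).

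Upstream of ATF4, 9 of 16 eIF2 kinases and regulators were higher and 1 lower, beside 41.0% and 33.6% of all tested genes. At equal sums of FPKM 9 were higher and 7 lower (9 and 4 after quantile normalization), beside 3283 higher and 5419 lower of all 11473 tested genes at equal sums and 3715 and 4890 after quantile normalization. The gene lower as deposited was Eif2ak3, which encodes PERK, at 12.2 ± 1.89 FPKM in Bach2KO and 22.5 ± 1.26 FPKM in WT (-0.86, adjusted p = 0.00076, limma, n = 3 each). Eif2s2, a subunit of eIF2 (0.90, adjusted p = 3.2e-05), Eif2ak2, the kinase PKR (1.17, adjusted p = 5.5e-05), Ppp1r15b, a phosphatase subunit acting on eIF2 (0.51, adjusted p = 8.8e-05), and Eif2b5, a subunit of its exchange factor (0.68, adjusted p = 0.00019), were higher. The other kinases, named after their values were seen, were Eif2ak4, or GCN2, at 6.31 ± 0.140 FPKM in Bach2KO and 4.22 ± 0.329 FPKM in WT (0.53, adjusted p = 0.00062), and Eif2ak1, or HRI, which was not called (0.06, adjusted p = 0.19). These are RNA levels, and phosphorylation of eIF2 was not measured.

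Of 16 endoplasmic reticulum stress genes 10 were higher and 1 lower (10 and 5 after quantile normalization, 10 and 6 at equal sums). They included the factor Xbp1 (3.10, adjusted p = 6.8e-07, limma), the chaperone Hsp90b1 (1.75, adjusted p = 4e-06) and the secreted proteins Manf (1.53, adjusted p = 1.4e-05) and Creld2 (1.401, adjusted p = 1.6e-05), while the cochaperone Dnajb9 was lower (-0.56, adjusted p = 0.0049). Of 22 tested folate and one-carbon genes outside the 35, 10 were higher and 3 lower (9 and 5 after quantile normalization, 7 and 6 at equal sums), beside 41.0% and 33.6% of all tested genes. The thymidylate synthase gene Tyms (2.87), the homocysteine-forming Ahcy (2.43) and the serine carrier Sfxn1 (1.37) were higher, with adjusted p between 2.8e-06 and 6e-05, and Mtfmt (-0.33, adjusted p = 0.0066) and Mat2b (-0.23, adjusted p = 0.0021) were lower. Of 11 other proline, aspartate and asparagine enzymes 9 were higher and 1 lower (5 and 3, and 4 and 3, under the 2 scalings). The aspartate aminotransferases Got1 (1.78, adjusted p = 2.5e-05) and Got2 (1.12, adjusted p = 1.5e-05) and Oat, the ornithine aminotransferase (0.77, adjusted p = 1.3e-05), were higher, and the proline-degrading Aldh4a1 was lower (-0.81, adjusted p = 3.6e-05).

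Proliferation genes moved with the 35 genes: 10 of 10 were called higher in Bach2KO, with a median log2 difference of 3.25. Their summed level was 1058 to 1172 FPKM in Bach2KO, against 126.4 to 148.4 FPKM in WT iTreg, 774.7, 1068 and 684.6 FPKM in Th1, Th2 and Th17, and 135.1 FPKM in naive cells. Of 6 T cell markers 4 were lower, and their summed level was 1253 to 1394 FPKM in Bach2KO and 1623 to 1661 FPKM in WT. B cell markers summed to 14.1 to 20.9 FPKM in Bach2KO and 11.7 to 66.9 FPKM in WT, and dendritic cell and class II markers to 153.2 to 178.3 FPKM in Bach2KO and 26.6 to 218.2 FPKM in WT, with Itgax and Siglech under 0.5 FPKM in all 6. Of the 8 B cell markers tested 2 were called lower and none higher, Cd79a (-1.20, adjusted p = 0.044, limma) and Ly6d (-2.10, adjusted p = 0.039). Of the 5 dendritic cell and class II markers tested 2 were called higher and none lower. Batf3 was between 4.88 and 13.8 FPKM in Bach2KO and at 0, 0.0635 and 0 FPKM in WT, and Zbtb46 at 3.04, 3.53 and 2.45 FPKM in Bach2KO and 0.356, 0.0979 and 0.252 FPKM in WT, and both passed the filter only through Bach2KO. Most of the summed level was Cd74, at 115.5 ± 15.5 FPKM in Bach2KO and 67.97 ± 53.1 FPKM in WT (n = 3 each), which was not called. Myeloid markers summed to 0.127 to 0.423 FPKM in Bach2KO and 3.05 to 4.29 FPKM in WT, with S100a8 and S100a9 at 0 in all 6. Nearly all of the WT sum was Itgam, at 3.86, 4.20 and 3.03 FPKM in WT and 0.143 ± 0.0398 FPKM in Bach2KO. It was the 1 myeloid marker tested, was called lower (-2.70, adjusted p = 1.2e-05, limma), and passed the filter only through WT. Cd14, Csf1r, Emr1 and Lyz2 were under 0.5 FPKM in all 6. Markers of CD8+ T, NK and gamma-delta T cells summed to 11.2 to 12.1 FPKM in Bach2KO and 4.53 to 5.47 FPKM in WT. The 2 tested, Cd8a and Cd8b1, were both called higher. Cd8b1 was at 9.19 ± 0.490 FPKM in Bach2KO and 4.91 ± 0.496 FPKM in WT. Cd8a, at 2.23 ± 0.124 and 0.0925 ± 0.0107 FPKM, passed the filter only through Bach2KO. The part of cell division and of other cells in the differences of the 35 genes was not tested, and in bulk samples fewer cells of a type and less RNA per cell cannot be told apart.

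The genes also varied together within a genotype. Bach2KO replicate 2 was the highest of its 3 libraries for 26 of the 35 genes, 8 of the 11 enzymes and 17 of the 20 synthetases, while it was highest for 45.2% of all 11473 tested genes. WT replicate 3 was the highest of its 3 libraries for 31 of the 35, including 11 of 11 enzymes and 18 of 20 synthetases, against 36% of all tested genes. Foxp3, looked up after these values were seen, was highest in the same 2 libraries, at 19.7 FPKM in Bach2KO replicate 2 and 81.1 FPKM in WT replicate 3. Among the proliferation genes, Mcm2, Mcm3, Mcm5, Pcna, Top2a and Tyms were also highest in both of these libraries. Ccna2, Ccnb1, Cdk1 and Mki67 were not. The pattern was therefore not particular to the 35 genes or to Foxp3. Called at the same threshold without Bach2KO replicate 2, 31 of 33 tested members were higher and 1 lower. Chac1 then dropped under the filter, and the median log2 difference was 0.88.

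Against naive cells, a comparison of single libraries or group means with no test, the genes were higher in Th1, Th2 and Bach2KO iTreg cells, and WT iTreg cells stayed near the naive level. Counting differences of at least 2-fold on the log2(FPKM + 0.5) scale, 25 of the 35 genes were higher and 0 lower in Th1, beside 27.9% and 9.35% of 11610 loci. In Th2 24 were higher and 0 lower (26.2% and 11.2% of loci), and in Th17 8 were higher and 1 lower (23.5% and 6.99%). In Bach2KO iTreg cells 18 were higher and 0 lower (26.7% and 5.75%), while in WT iTreg cells 0 were higher and 1 lower (16.7% and 3.37%). The median log2 difference from naive was 1.43 in Th1, 1.34 in Th2, 0.60 in Th17, 1.02 in Bach2KO and 0.10 in WT iTreg cells, beside medians over all loci of 0.35, 0.26, 0.34, 0.43 and 0.32. These values share the naive library, and at equal sums of FPKM the counts of genes higher were 15 in Th1, 16 in Th2, 4 in Th17, 10 in Bach2KO and 0 in WT. Medians over all loci were then -0.07 in Th1, -0.12 in Th2, 0.05 in Th17, -0.03 in Bach2KO and 0.11 in WT. The share of all loci past 2-fold is not given at that scaling.

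Atf4 had another order across these libraries. It was at 121.9 FPKM in Th1, 101.7 FPKM in Th2 and 65.5 FPKM in Th17, against 166.7 FPKM in naive cells, which held the highest level of the 10 libraries, and it ranked at the 97.7 percentile there. In WT iTreg cells its mean of 43.3 ± 2.62 FPKM (n = 3) was the lowest of all groups, a log2 difference of -1.94 from naive. In naive cells Asns was at 0.0846 FPKM, on 5 implied reads, Chac1 was listed at 0, and Psat1 was at 8.54 FPKM. In Th1, Th2 and Th17 Asns was at 45.6, 28.9 and 3.94 FPKM and Psat1 at 102.1, 93.3 and 29.4 FPKM. Chac1 was at 4.80 FPKM in Th1 and 3.67 FPKM in Th2 and was listed at 0 in Th17.

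Ddit3 had yet another order, at 52.8, 84.5 and 13.6 FPKM in Th1, Th2 and Th17, against 27.7 FPKM in naive cells, so its Bach2KO mean of 16.1 ± 0.741 FPKM lay between Th17 and naive. Trib3 was at 14.9, 12.2 and 3.31 FPKM in Th1, Th2 and Th17, against 3.20 FPKM in naive cells, and its Bach2KO mean of 16.1 ± 2.15 FPKM stood at the level of Th1. The log2 ratio of Mthfd2 over Mthfd1 was 2.29 in Th1, 1.98 in Th2 and 0.37 in Th17, against 0.07 in naive cells. Mthfd1 and Farsa were below naive in Th1 (12.0 and 21.4 FPKM, against 12.9 and 24.6 FPKM in naive cells) although most members were above it.

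The Bach2KO group had the highest level of all 6 groups for 12 of the 35 genes, Th1 for 16, Th2 for 6 and naive for 1. The lowest level fell to naive for 19, to WT iTreg for 13, to Th17 for 2 and to Th2 for 1. These counts hold for FPKM as deposited, and the shares over all loci are not given. Shmt2, Eprs, Gars, Iars and Tars were lowest in naive as deposited. At equal sums of FPKM their log2 differences of WT iTreg from naive were -0.13, -0.21, -0.05, -0.23 and -0.08, so the counts of lowest level depend on the scaling. Wars was at 84.4 ± 11.8 FPKM in Bach2KO, against 17.5 ± 2.53 FPKM in WT iTreg (n = 3 each), and at 26.2, 16.1 and 35.2 FPKM in Th1, Th2 and Th17, against 14.5 FPKM in naive cells. Qars was at 130, 91.7 and 84.1 FPKM in Th1, Th2 and Th17, against 41.0 FPKM in naive cells, with Bach2KO at 60.6 ± 1.83 FPKM and WT at 57.4 ± 2.67 FPKM.

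**Figure D4:**
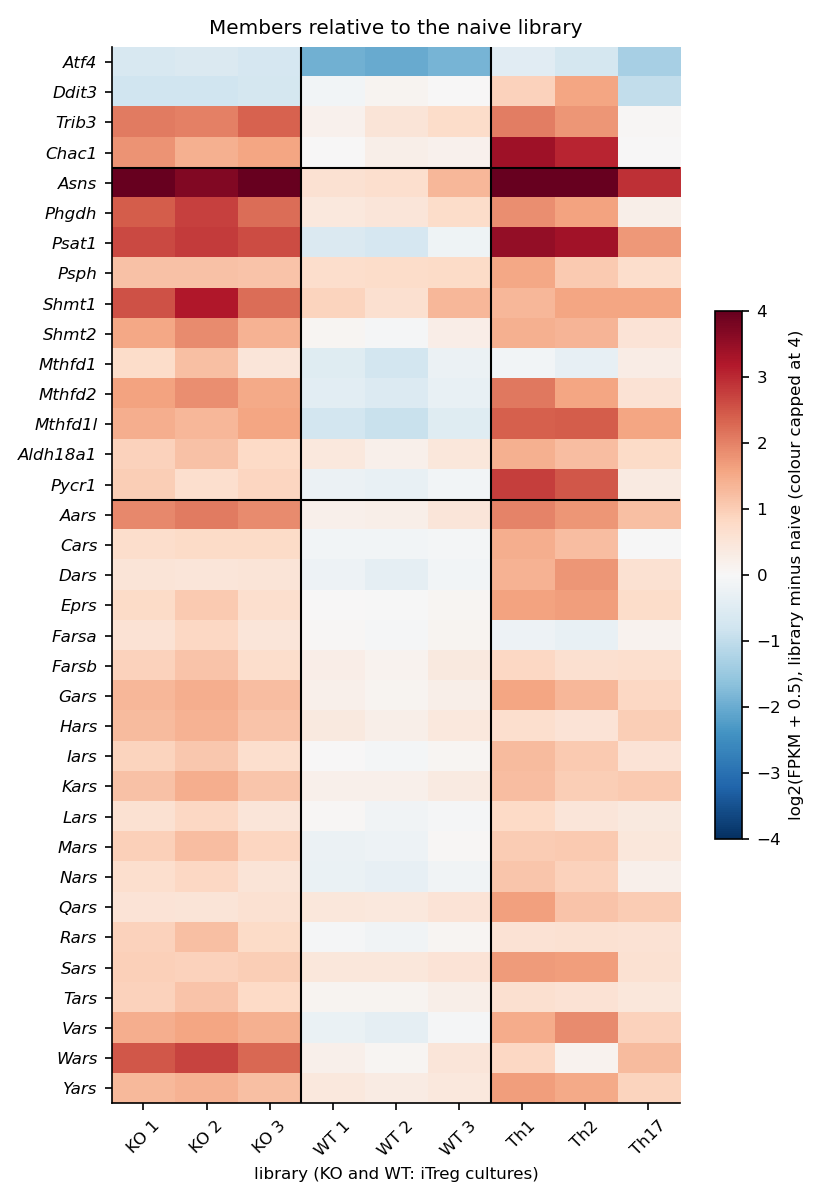
Difference from the naive library in log2(FPKM + 0.5) for the 35 genes (rows; regulators, enzymes and synthetases from top to bottom) in the 3 Bach2KO and 3 WT iTreg libraries and in Th1, Th2 and Th17 (columns). Atf4 is below naive in every column, and most rows below it are red in Bach2KO, Th1 and Th2 and near white in WT iTreg.

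Bach2 peaks in WT iTreg cells were taken from the authors' list of 22494, called in 1 ChIP library of 8992019 tags against 9999999 input tags, whose tag counts, fold enrichments and FDR are the authors'. A peak lay in the gene or within 10 kb of it for 22 of the 35 genes, beside 58.8% of the 11473 tested genes. With peaks of an FDR of at most 5% the count was 20 (55.6% of tested genes), within 2 kb it was 18 (45.8%) and within 50 kb 31 (84.5%), each a share near that of all genes. A summit within 1 kb of the annotated start, a window chosen after the values were seen, was present for 11 genes: Aars, Atf4, Kars, Mars, Mthfd1l, Nars, Phgdh, Psph, Tars, Trib3 and Vars. The share over all genes was 16.5%. The Atf4 summit lay 382 bases downstream of the start in a peak of 84 tags with a fold enrichment of 4.06 and an FDR of 5.02%. It was weak beside the peak at Nars, 30 bases upstream of the start with 149 tags and a fold enrichment of 33.6. The start peaks of Aars, Kars, Mars, Mthfd1l, Psph and Vars were also weak, with fold enrichments from 5.07 to 7.12 and FDR from 1.87% to 6.52%.

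Other strong peaks lay at Trib3, with a summit in an intron 506 bases downstream of the start (167 tags, fold enrichment 12.6), at Phgdh, 41 bases upstream (66 tags, 28.8) and 3921 bases downstream in an intron (77 tags, 29.7), and at Ddit3, 3558 bases downstream in an annotated exon (102 tags, 38.9). The Ddit3 peak also lies within 10 kb of Mars, the peaks with most tags near Pycr1 (422 and 331) lie in introns of Mafg, and a peak near Dars (130 tags) lies in an intron of Mcm6, so nearness does not assign them to the members. Of 35 distinct peaks near the 35 genes, 14 held TGANTCA within 100 bases of the summit, and over all peaks the share was 43.1%. The peak upstream of Tars (111 tags, fold enrichment 16.0, summit 296 bases upstream of the start) held 1 copy. Its central 101 bases are printed on the strand of the gene (mm9, chr15:11329659-11329759, minus strand) because the gene carries TGATGNAA at its start and an AP-1-like match, in capitals, under a Bach2 peak.
Tars: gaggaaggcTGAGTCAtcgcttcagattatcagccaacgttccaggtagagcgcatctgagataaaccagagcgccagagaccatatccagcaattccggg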

How the data were processed

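Per the labels' protocols, the authors mapped unique reads of 50 bp on mm9 by TopHat and took FPKM from Cufflinks; neither their versions nor the annotation is given in the sources used here. Per the file headers, MACS 1.4.0beta called the peaks (p-value cutoff 1e-05), and Bowtie did the alignment, according to the submitters' processing notes. A peak's deposited tags are a raw count and its deposited score is -10 times log10 of p, per the file headers; fold enrichment (a ratio) and FDR in percent are likewise the authors'.

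FPKM was used as deposited. The 3 Bach2KO and 3 WT iTreg libraries entered a two-sided limma fit (version 3.58.1, R 4.3.3, trended eBayes) of log2(FPKM + 0.5). Genes averaging 0.5 FPKM or more across these 6 were tested, with Benjamini-Hochberg adjustment over 11473 genes. The fit was tested on simulated data. Implied reads come from the deposited confidence bounds of loci with 1 start and cover counting error only. The files repeat 472 symbols, and 72 loci have a failed estimate in an iTreg library. The members and the 17 lists were chosen with earlier results of these data known. Values by library are given for all regulators and enzymes and for synthetases with the 3 largest and 3 smallest differences, those not called, and those highest and lowest in level. Of each list, up to 4 genes by smallest adjusted p and up to 3 in the rarer direction are named; some items are not reported here. Motifs were searched in RefSeq upstream sequences of GRCm38.p6, and peak sequence was read from mm9. Alternatives were other pseudocounts, filters and scalings, a replicate block, robust eBayes, each replicate left out and, added after the data were seen, loci with a failed estimate left out.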

Additional observations from a re-analysis of the deposited data

How the results depend on the processing

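Of 505 log2 differences of single members under the alternatives, 503 kept their direction and their side of the threshold; the 2 that did not were those of Qars, at -0.159 (adjusted p = 0.024) after quantile normalization and -0.195 (adjusted p = 0.0094) at equal sums of FPKM over loci of at least 300 bp, which made 2 members lower under each. With each replicate left out, between 7746 and 8644 genes and 31 or 32 members higher were called, and the adjusted p of Qars lay between 0.082 and 0.44. Leaving out a replicate gave genotype differences between 0.709 and 0.895 for the log2 ratio of Mthfd2 over Mthfd1 and between -0.299 and -0.069 for Shmt2 over Shmt1. Same-numbered iTreg libraries did not deviate together (correlations of deviations -0.038, -0.038 and 0.006). This cannot settle whether they were paired by culture, because the labels do not describe the replicates. With the replicate number as a block 7886 genes were called and every tested member kept its call.

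Counts against naive moved most. After quantile normalization, which left out Mthfd1l for its failed estimate and so counted over 34 genes, genes at least 2-fold higher were 15 in Th2, 3 in Th17 and 10 in Bach2KO iTreg, and genes at least 2-fold lower were 1 in Th1, 1 in Th2, 2 in Th17, 2 in Bach2KO and 2 in WT iTreg. At equal sums, genes higher were 15 in Th1, 4 in Th17 and 10 in Bach2KO, and genes lower were 1 in Th2, 2 in Th17 and 2 in Bach2KO. With a pseudocount of 0.1, 2 were lower in Th17 and 2 higher in WT iTreg. Medians over all loci were -0.16 in Th1, -0.16 in Th2, -0.15 in Th17, -0.17 in Bach2KO and -0.11 in WT iTreg after quantile normalization. These counts stand without the share of all loci past 2-fold at the same setting. The cause was not tested. Depth limits Chac1, Pycr1 and Asns, which rest on few reads in WT and naive libraries.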
